A study of Homo sapiens with 6 samples.

Results

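The miR-17 seed family is a group of small regulatory RNAs that share the bases by which a miRNA finds its targets. Here it was followed in exosomes, the small vesicles that cells release, through 4 mature miRNAs: hsa-miR-17-5p, hsa-miR-20a-5p, hsa-miR-93-5p and hsa-miR-106b-5p, written below without the species prefix. They were taken by name from count tables that list 503 mature miRNAs, and all 4 were listed. The libraries came from MDA-MB-231 cells, a human breast carcinoma line of triple-negative, mesenchymal type. Stable clones carried a hairpin directed at MCU (shMCU) or a control hairpin (shNC), with 3 exosome libraries of each kind and 6 in all. MCU encodes the pore of the mitochondrial calcium uniporter, and the series asks whether lowering it changes the miRNAs that exosomes carry. All cells were grown in medium with serum depleted of exosomes. The labels do not say whether each arm is 1 clone or several, nor whether replicates are independent cultures; the p-values therefore speak only of the scatter among these 6 libraries, part or all of which may be technical. Small RNA counts hold no MCU transcript, and the knockdown was not checked here.

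A miRNA is cut from one arm of an RNA hairpin and loaded into Argonaute, and its seed then pairs with messenger RNAs, which are repressed. The miR-17 family is encoded in paralogous clusters that MYC and E2F factors are known to activate. Its known targets include CDKN1A and BCL2L11, which restrain cell division and survival, and the clusters are regarded as oncogenic in many carcinomas, breast included.

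The mature sequences are shown because they explain why the members are read as one family and why their counts can be confused with each other. They are given 5′ to 3′ from RefSeq (GRCh38.p14), with the seed, bases 2 to 8, in capitals; the last line is the family member of the X-linked cluster that was also listed.
miR-17-5p: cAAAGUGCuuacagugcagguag
miR-20a-5p: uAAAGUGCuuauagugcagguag
miR-93-5p: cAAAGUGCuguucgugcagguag
miR-106b-5p: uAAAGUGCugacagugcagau
miR-106a-5p: aAAAGUGCuuacagugcagguag
The mature miRNAs of the members lie at chr13:91350618-91350640 (miR-17-5p, plus strand), chr13:91351072-91351094 (miR-20a-5p, plus strand), chr7:100093815-100093837 (miR-93-5p, minus strand) and chr7:100094043-100094063 (miR-106b-5p, minus strand).

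Beyond the seed, the 4 members also share the run GUGCAG further along. Of the 437 listed miRNAs matched by name to a RefSeq mature sequence, 8 (1.83%) hold those 6 letters anywhere on the mature strand, the 4 members among them. With positions counted from 1 at the 5′ end, miR-17-5p and miR-20a-5p differ by C1U and C12U, and miR-17-5p and miR-106a-5p by C1A alone. The largest difference among the members is the 5 substitutions between miR-93-5p and miR-106b-5p, which is also 2 bases shorter. The sources used here do not give the mismatches that the alignment allowed, so the split of reads among these names is uncertain, while their sum is less exposed to it. None of the 4 holds GGAG, a short motif that has been linked to sorting into exosomes in T cells; 43 of the 437 matched miRNAs (9.84%) hold it on the mature strand.

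In the genome the members fall into a pair of clusters. The hairpins of miR-17 and miR-20a lie in MIR17HG, a long noncoding RNA gene on chromosome 13 that is processed into the miR-17-92 cluster. In GENCODE release 29 (GRCh38) MIR17 spans 91350605 to 91350688 and MIR20A 91351065 to 91351135, both on the plus strand; each overlaps an exon in 2 MIR17HG transcripts and lies in an intron in 1. MIR93 (100093768 to 100093847) and MIR106B (100093993 to 100094074) lie on the minus strand of chromosome 7, in an intron of each of the 8 spanning transcripts of MCM7, a gene for a subunit of the DNA replication helicase. That intron also holds MIR25. Of the third cluster, on chromosome X, the listed family member, miR-106a-5p, was close to undetected. It had 0 counts in all 3 shMCU libraries and 1, 0 and 0 counts in shNC replicates 1, 2 and 3. Reads of miR-106a-5p that were assigned to miR-17-5p would lower its count, and this was not tested. No other listed miRNA matched to RefSeq has the members' seed. A shifted form of it occurs in the embryonic miR-372-3p and the placental miR-512-3p, each with 1 count in shMCU replicate 2 and 0 in the other libraries.

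The libraries were shallow, with 12859 to 14692 counts in shMCU and 11563 to 47863 counts in shNC libraries. A count of 0 allows up to 3 counts, which is 204 to 233 CPM (counts scaled to a common total over all listed miRNAs) in shMCU and 62.7 to 259 CPM in shNC libraries. Intervals given on single libraries are Wilson 95% intervals and cover counting error only. Of the markers of the line, miR-21-5p, miR-100-5p, miR-221-3p and miR-222-3p were present in all 6 libraries; their summed level was 256319 to 358855 CPM in shMCU and 319208 to 364102 CPM in shNC libraries. The epithelial miR-200c-3p and miR-205-5p stayed at 0 to 14 counts, and miR-375 had 15 counts in shMCU replicate 2 and 0 or 1 in each of the others. Markers of blood cells, in which the miR-17 family is also abundant, were at low counts. miR-451a had 2 to 7, miR-486-5p 2 to 20, miR-142-3p 0 to 3 and miR-223-3p 0 to 1 counts per library. The platelet and endothelial miR-126-3p was present in all 6, with 10, 6 and 5 counts in shMCU and 25, 11 and 6 in shNC replicates 1, 2 and 3. These counts reached those of the scarcer members. miR-106b-5p also had 2 to 7 counts per library, and miR-17-5p had 6 in shMCU replicate 2. shMCU replicate 3 stood apart in several markers. It held 103663 CPM of the liver miRNA miR-122-5p, against 23589 and 37231 CPM in shMCU replicates 1 and 2 and 12281 to 23296 CPM in shNC libraries, and it was the lowest library for miR-21-5p and miR-221-3p.

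All 4 members were detected in every library, and together they held 1174 of 119791 counts. The sum was 161, 82 and 40 counts in shMCU replicates 1, 2 and 3, and 499, 164 and 228 counts in shNC replicates 1, 2 and 3. As a share of all counts this was 1.25% (95% interval 1.07 to 1.45), 0.558% (0.450 to 0.692) and 0.311% (0.229 to 0.423) in the shMCU libraries, against 1.04% (0.955 to 1.14), 1.42% (1.22 to 1.65) and 1.15% (1.01 to 1.30) in the shNC libraries. shMCU replicate 1 thus lay among the shNC libraries, while shMCU replicates 2 and 3 lay below all of them, beyond counting error. The group means were 0.705% ± 0.484 (SD, n = 3) in shMCU and 1.20% ± 0.194 in shNC libraries, and the groups overlapped. The fitted log2 fold change of the sum was -0.63, a fold of 0.648, given without a test because the members were chosen with earlier results known. It rested on which shMCU libraries were counted, at -1.21 without shMCU replicate 1 and -0.34 without shMCU replicate 3. miR-122-5p was highest where the family was lowest, and part of the line's own markers were low in the same libraries. miR-21-5p stood at 216009, 182753 and 114939 CPM in shMCU replicates 1, 2 and 3, against 195349, 220617 and 214846 CPM in shNC replicates 1, 2 and 3. miR-221-3p stood at 15081, 9937 and 6766 CPM in shMCU, against 14186, 11762 and 12875 CPM in shNC replicates 1, 2 and 3. In both, shMCU replicates 2 and 3 were below all shNC libraries, by less than the family was. For miR-21-5p this was beyond counting error. For miR-221-3p, shMCU replicate 2 was within counting error of shNC replicates 2 and 3. miR-222-3p stood at 3944, 2995 and 2955 CPM in shMCU, against 3406, 5275 and 3370 CPM in shNC replicates 1, 2 and 3. Its shMCU replicates 2 and 3 were also below all shNC libraries, but within counting error of shNC replicates 1 and 3. miR-100-5p was within the shNC range in all 3 shMCU libraries. The part of these markers in the family's lower share was not tested. Counts from exosome preparations are relative to the other miRNAs of the library, so fewer molecules of the family per vesicle, fewer vesicles that carry it, and more of other miRNAs cannot be told apart.

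miR-20a-5p, the most abundant member and one of the MIR17HG pair, had 80, 46 and 16 counts in shMCU replicates 1, 2 and 3, against 268, 67 and 113 counts in shNC replicates 1, 2 and 3. These are 6187, 3131 and 1244 CPM in shMCU and 5599, 5794 and 5683 CPM in shNC libraries. The 3 shNC libraries were nearly level, with a highest-to-lowest ratio of 1.03, while the shMCU libraries spread over a ratio of 4.97 and held both the highest and the lowest value of the 6. The means were 3521 ± 2494 CPM in shMCU and 5692 ± 97.8 CPM in shNC (SD, n = 3 each). The fitted fold was 0.686 (95% interval 0.367 to 1.28), which did not pass edgeR's quasi-likelihood test (Benjamini-Hochberg adjusted p = 0.71).

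miR-93-5p, the most abundant member from the MCM7 intron, had 57, 28 and 14 counts in shMCU replicates 1, 2 and 3, against 158, 66 and 76 counts in shNC replicates 1, 2 and 3. The same libraries were low as for miR-20a-5p: 4408, 1906 and 1089 CPM in shMCU, against 3301, 5708 and 3822 CPM in shNC. shMCU replicate 1 lay above 2 of the 3 shNC libraries, and the counting intervals of shMCU replicates 2 and 3 lay below those of all shNC libraries, as they did for miR-20a-5p. The means were 2468 ± 1730 CPM in shMCU and 4277 ± 1266 CPM in shNC libraries (SD, n = 3 each). The fitted fold was 0.649 (0.341 to 1.24) and did not pass (edgeR's quasi-likelihood test, adjusted p = 0.70).

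miR-17-5p, the founding member and a repressor of CDKN1A and E2F1, had 22, 6 and 8 counts in shMCU replicates 1, 2 and 3, against 67, 27 and 32 counts in shNC replicates 1, 2 and 3. In CPM it stood at 1701, 408 and 622 in shMCU and at 1400, 2335 and 1609 in shNC libraries. Only shMCU replicate 2 had a counting interval below those of all shNC libraries. The means were 911 ± 693 CPM in shMCU and 1781 ± 491 CPM in shNC libraries (SD, n = 3 each). Its fitted fold, 0.584 (0.272 to 1.25), was the lowest of the members tested and did not pass either (edgeR's quasi-likelihood test, adjusted p = 0.70).

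miR-106b-5p, which targets CDKN1A as miR-17-5p does, was scarce. It had 2 counts in each shMCU library and 6, 4 and 7 counts in shNC replicates 1, 2 and 3. That is 155, 136 and 156 CPM in shMCU and 125, 346 and 352 CPM in shNC libraries, near the limit that a count of 0 allows. The counting intervals of the shMCU libraries overlapped those of all shNC libraries. It was the member that did not pass the filter on low counts. Fitted without that filter, its fold was 0.635 with a wide 95% interval, from 0.218 to 1.85 (adjusted p = 0.68, edgeR's quasi-likelihood test).

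**Figure D1:**
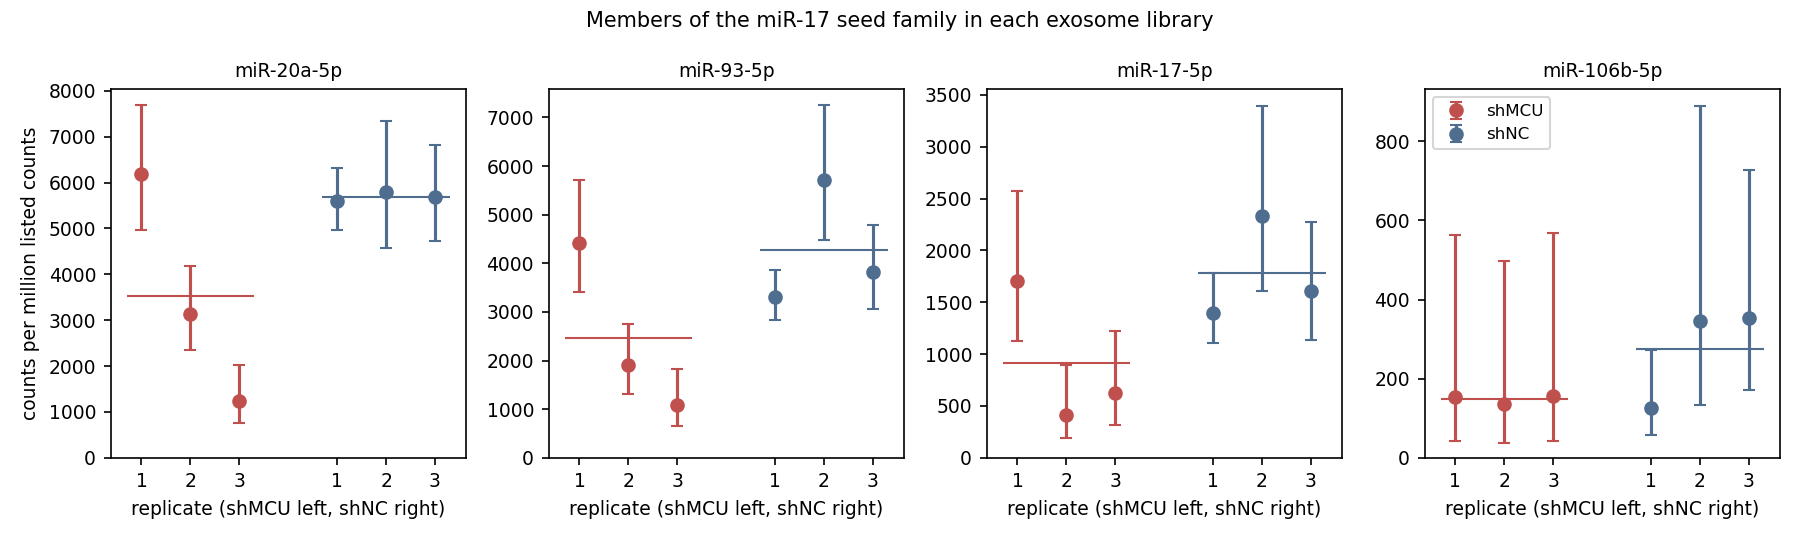
CPM over all listed counts (vertical axes, one scale per panel) of the 4 members in each library, shMCU in red and shNC in blue. Points are libraries, bars their Wilson 95% counting intervals and horizontal lines the group means; for miR-20a-5p the shNC libraries sit between 5599 and 5794 CPM, while shMCU replicates 1, 2 and 3 stand at 6187, 3131 and 1244 CPM.

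No member was called in the comparison of shMCU with shNC exosomes. Of the 3 members tested with edgeR's quasi-likelihood model, 0 passed the threshold of 0.05 on the adjusted p (background over the 79 miRNAs tested: 0%), and 0 had an unadjusted p under 0.05 (background 3.80%). The number of members called was 0 with DESeq2 (background 1.27%, 1 of 79) and 0 with quality-weighted limma voom (background 0%). It was also 0 by edgeR without the filter on low counts (background 0.199%, 1 of 503, which was miR-375) and without the 10 most abundant miRNAs (background 1.32%, 1 of 76). All 3 were fitted lower in shMCU, where 51.9% of the tested miRNAs were, with a median log2 fold change of -0.62 for the 3 members and -0.02 for all 79. With library totals in place of TMM scaling, these medians were -0.78 and -0.23. None of the members separated the groups in CPM, as every one had at least 1 shMCU library within or above the shNC range; 10.1% of the tested miRNAs had all shMCU libraries below all shNC libraries, and 11.4% had groups apart in either direction. The 95% intervals of the 3 tested members' folds reached from 0.272, that of miR-17-5p, to 1.28, that of miR-20a-5p, so a sizeable decrease and no decrease are both within them.

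**Figure D2:**
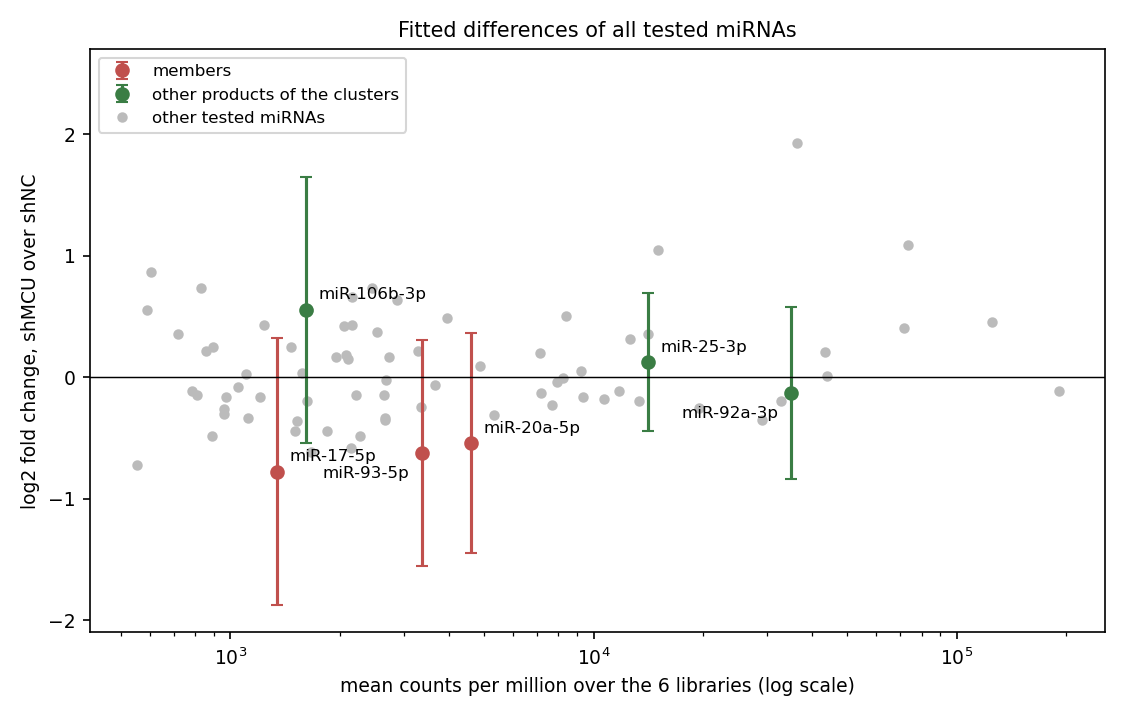
Fitted log2 fold change, shMCU over shNC, of the 79 tested miRNAs against their mean CPM over the 6 libraries (log scale). Members are red and other cluster products green, with 95% intervals as bars; miR-17-5p, miR-93-5p and miR-20a-5p lie at -0.78, -0.62 and -0.54, and every interval drawn crosses 0.

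The family's share of a library ranged from 0.311% to 1.42%, while the balance between its clusters stayed within narrower bounds. A share among the members does not depend on how libraries are scaled to each other. The MIR17HG pair (miR-17-5p and miR-20a-5p) made up 63.4%, 63.4% and 60.0% of the members' counts in shMCU replicates 1, 2 and 3, against 67.1%, 57.3% and 63.6% in shNC replicates 1, 2 and 3. The means were 62.3% ± 1.95 in shMCU and 62.7% ± 4.97 in shNC libraries (SD, n = 3 each), and the groups overlapped. In shMCU replicate 3, where the family was lowest, the pair held 24 of 40 counts, an interval from 44.6% to 73.7%. miR-93-5p made up 35.4%, 34.1% and 35.0% of the members' counts in shMCU and 31.7%, 40.2% and 33.3% in shNC replicates 1, 2 and 3. The shares of miR-17-5p and miR-20a-5p ranged more widely. miR-17-5p made up 13.7%, 7.32% and 20% in shMCU and 13.4%, 16.5% and 14.0% in shNC replicates 1, 2 and 3. For miR-20a-5p the shares were 49.7%, 56.1% and 40.0% in shMCU and 53.7%, 40.9% and 49.6% in shNC replicates 1, 2 and 3. Within the pair, miR-17-5p was thus lowest and miR-20a-5p highest in shMCU replicate 2, and the reverse held in shMCU replicate 3, where the counting intervals of both shares overlapped those of shMCU replicate 2. miR-106b-5p, on few counts, made up 1.24% to 5.0% in shMCU and 1.20% to 3.07% in shNC libraries. The order miR-20a-5p, miR-93-5p, miR-17-5p, miR-106b-5p held in all 6 libraries. The first step of it was within counting error in most of them: the intervals of miR-20a-5p and miR-93-5p overlapped in 5 of 6 libraries. Those of miR-93-5p and miR-17-5p overlapped in 1 of 6, and those of miR-17-5p and miR-106b-5p in 2 of 6. Efficiency of adapter ligation differs between sequences, and its part in this order was not tested.

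The members were then set against the other miRNAs cut from the same primary transcripts. Of 24 other products of the 3 clusters, 14 were listed and 3 passed the filter on low counts: miR-92a-3p, miR-25-3p and miR-106b-3p. None of these passed the test (background 0%), 2 were fitted higher and 1 lower in shMCU, and their median log2 fold change was 0.12. That of miR-25-3p, from the MCM7 intron and known to target MCU, was 0.12 ± 0.25 (SE), or -0.10 with library totals alone. For miR-92a-3p, processed from the same transcript as miR-17 and miR-20a, it was -0.13 ± 0.32, or 0.18 without shNC replicate 1 and 0.02 without shMCU replicate 3. Below the filter, miR-19b-3p had 9, 7 and 1 counts in shMCU and 13, 12 and 16 counts in shNC replicates 1, 2 and 3. miR-19a-3p, from the same cluster, had 1 count in each shMCU library and 7, 3 and 2 counts in shNC replicates 1, 2 and 3. The remaining listed products, passenger arms for the most part, had at most 3 counts in any library.

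Within the MCM7 intron, the proportion of miR-93-5p to miR-25-3p was not constant. miR-25-3p had 158, 246 and 155 counts in shMCU and 889, 143 and 258 counts in shNC replicates 1, 2 and 3. Of the summed counts of both miRNAs, miR-93-5p made up 26.5% (95% interval 21.1 to 32.8), 10.2% (7.17 to 14.4) and 8.28% (5.0 to 13.4) in shMCU, against 15.1% (13.1 to 17.4), 31.6% (25.7 to 38.2) and 22.8% (18.6 to 27.5) in shNC. The means were 15.0% ± 10.01 and 23.1% ± 8.25 (SD, n = 3 each). Libraries of one group differed beyond counting error, and the groups overlapped. The difference (shMCU minus shNC) of -8.14 percentage points was -13.9 without shMCU replicate 1, -3.92 without shNC replicate 2 and -3.82 with the counts of each group pooled. In MIR17HG, miR-17-5p and miR-20a-5p together made up 15.0%, 10.3% and 9.38% of their sum with miR-92a-3p in shMCU replicates 1, 2 and 3, against 11.2%, 21.4% and 19.2% in shNC replicates 1, 2 and 3. The groups overlapped here too, through shNC replicate 1, which at 47863 counts was the deepest library; the difference of -5.72 points was -8.76 without it, -3.65 without shNC replicate 2 and -1.37 with the counts of each group pooled, where the deepest library weighs most. shNC replicate 1 had the highest miR-92a-3p of the 6, at 55492 CPM. The pair's share averaged 11.6% ± 3.04 in shMCU and 17.3% ± 5.37 in shNC libraries (SD, n = 3 each). miR-92a-3p is also made from the X-linked cluster, so its counts have a second possible source.

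The hairpins of miR-106b and miR-20a are shown because their arms were counted in opposite proportions. Both are RefSeq sequences (GRCh38.p14), 5′ to 3′, with the 5p arm and then the 3p arm in capitals.
MIR106B: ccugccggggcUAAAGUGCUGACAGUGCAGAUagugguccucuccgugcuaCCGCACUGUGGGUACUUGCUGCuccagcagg
MIR20A: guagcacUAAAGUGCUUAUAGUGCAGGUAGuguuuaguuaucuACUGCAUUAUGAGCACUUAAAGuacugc
Only the 5p arm carries the family seed. For miR-20a it took 590 of the 591 counts of both arms over the 6 libraries, for miR-17 162 of 164 and for miR-93 399 of 401. For miR-106b it took 23 of 214, and the 3p arm led in every library. miR-106b-3p had 9, 40 and 25 counts in shMCU and 73, 17 and 27 counts in shNC replicates 1, 2 and 3. The 5p arm's share of miR-106b was 18.2%, 4.76% and 7.41% in shMCU, against 7.59%, 19.05% and 20.6% in shNC replicates 1, 2 and 3. The means were 10.1% ± 7.11 in shMCU and 15.7% ± 7.10 in shNC libraries (SD, n = 3 each), within the spread of the libraries. The 3p arm, at 696, 2723 and 1944 CPM in shMCU and 1525, 1470 and 1358 CPM in shNC libraries, was lowest in shMCU replicate 1, where the members with the seed were at shNC levels. Its fitted fold was 1.47 (0.689 to 3.13) and did not pass (edgeR's quasi-likelihood test, adjusted p = 0.81). Reads of miR-106b-5p that were assigned to a near-identical member would lower its count, and this was not tested.

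**Figure D3:**
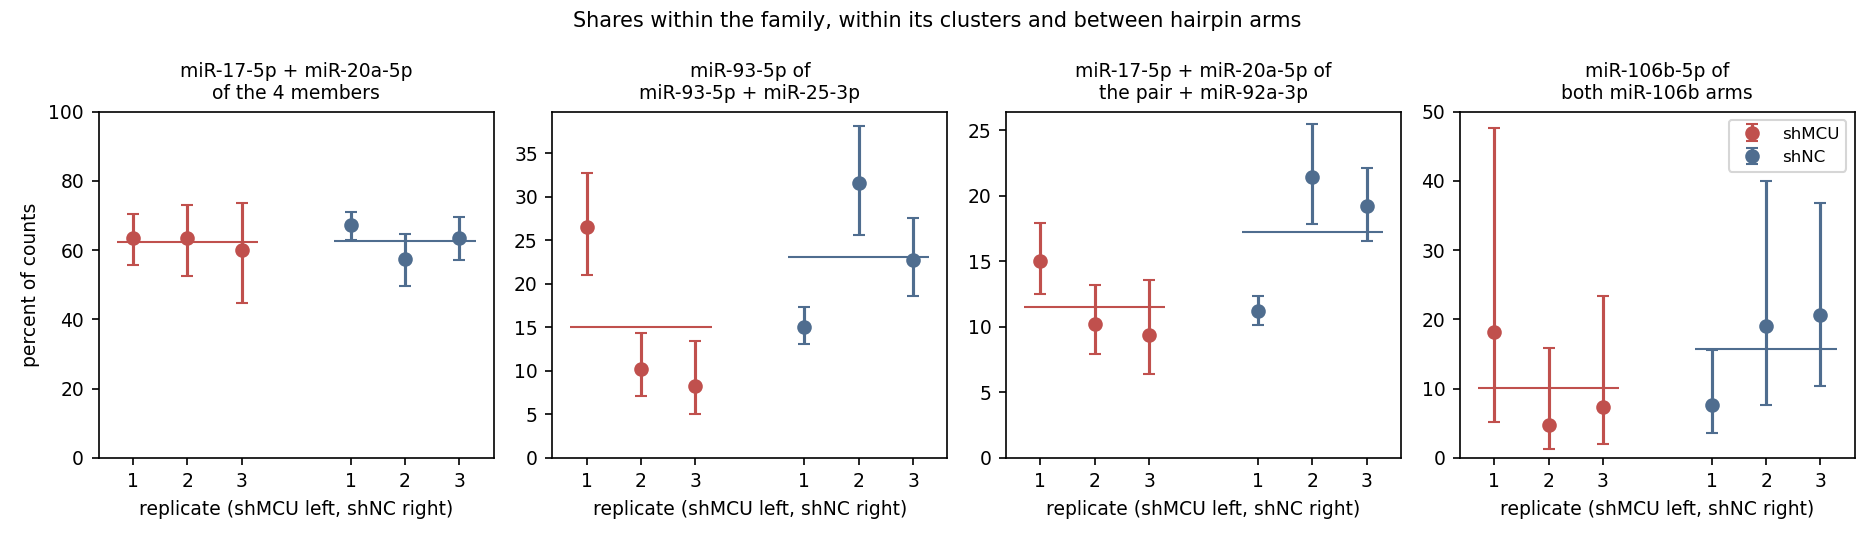
Percent of counts (vertical axes, one scale per panel) that the first-named miRNAs make up, per library, with Wilson 95% counting intervals as bars and group means as lines, shMCU in red and shNC in blue. The MIR17HG pair stays between 57.3% and 67.1% of the members, while the share of miR-93-5p in its sum with miR-25-3p spans 8.28% to 31.6%.

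The 3 members that passed the filter on low counts varied together over the 6 libraries. On TMM-scaled log2 CPM, Pearson's r was 0.92 between miR-20a-5p and miR-93-5p, 0.85 between miR-17-5p and miR-93-5p and 0.67 between miR-17-5p and miR-20a-5p. These values describe 6 libraries that share a scaling, and the low levels of shMCU replicates 2 and 3 weigh heavily in them. Outside the clusters, the 5 tested miRNAs whose levels ran closest to the summed members were miR-191-5p (r = 0.95), miR-138-5p (r = 0.92), miR-29a-3p (r = 0.90), let-7c-5p (r = 0.89) and miR-4485 (r = 0.86). miR-191-5p, common in many carcinomas, had 4563, 2314 and 1711 CPM in shMCU and 3907, 3978 and 3571 CPM in shNC replicates 1, 2 and 3, with the same shMCU libraries low. miR-29a-3p, a repressor of collagen genes, had 12065, 7623 and 5055 CPM in shMCU and 8796, 11675 and 10813 CPM in shNC replicates 1, 2 and 3. miR-138-5p and miR-4485, an annotation that resembles mitochondrial ribosomal RNA, rested on 2 to 22 and 3 to 50 counts per library. For other products of the clusters, r with the summed members was 0.52 for miR-92a-3p, -0.59 for miR-25-3p and -0.76 for miR-106b-3p.

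**Figure D4:**
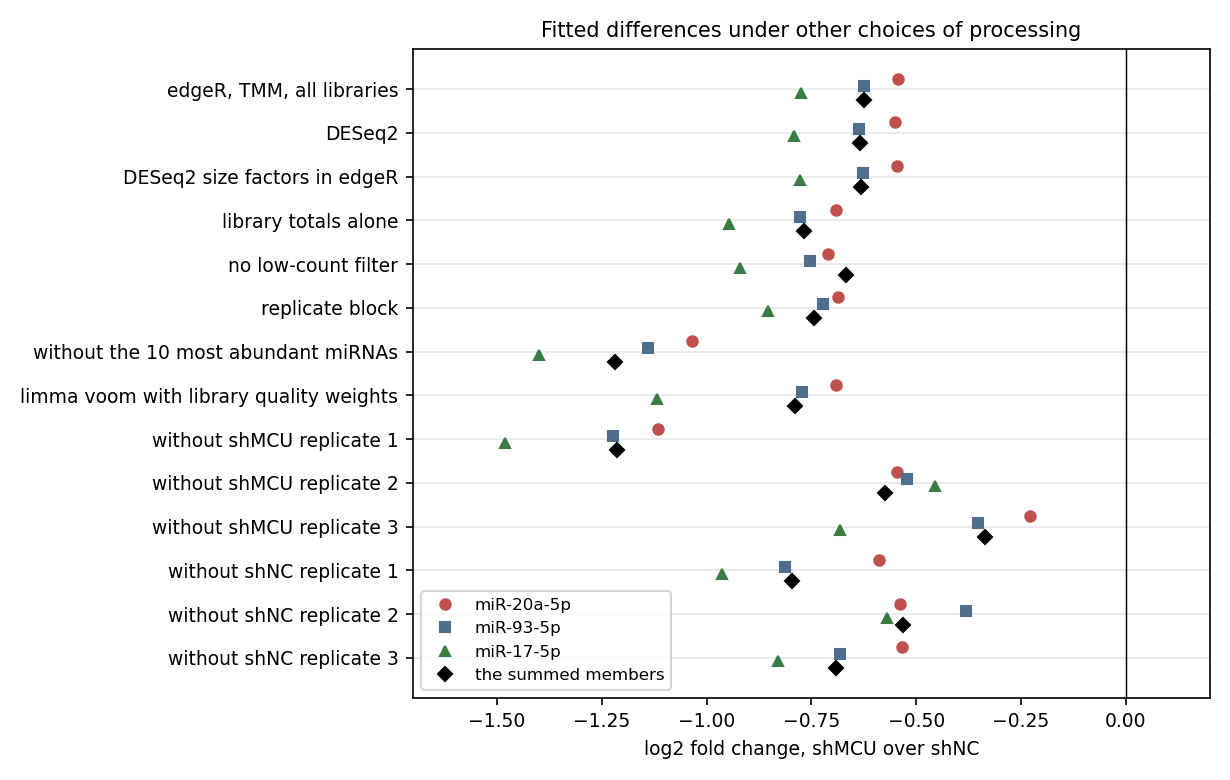
Fitted log2 fold change, shMCU over shNC (horizontal axis), of the tested members and of the 4 members summed, under the choices of processing named on the vertical axis. A filter of 100 counts in 3 libraries, which removed the single members, is not drawn. All points lie below 0; the sum runs from -0.34 without shMCU replicate 3 to -1.22 without the 10 most abundant miRNAs.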

How the data were processed

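The authors deposited 1 table of read counts per library, whole numbers per mature miRNA that are not normalized; the unit was read from the values. The aligner was Bowtie and the build hg19, per the submitters' processing notes; its version, its mismatch setting, how reads with several matches were treated, and the miRNA annotation are unknown: not given in the sources used here. RefSeq and GENCODE positions are on GRCh38 and were not set against hg19.

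The test was edgeR's quasi-likelihood F test (version 4.0.16, R 4.3.3) with TMM scaling, filterByExpr at a minimum count of 10 and no covariate besides group, Benjamini-Hochberg adjusted over the 79 miRNAs that passed and a threshold of 0.05. Standard errors are the log2 fold change over the square root of F. Printed CPM use all listed counts and no TMM factor (0.820 to 1.12), while folds and correlations are TMM-scaled (prior count of 2 for log2 CPM). Alternatives used DESeq2 1.42.0, limma 3.58.1 and other scalings, filters, designs and left-out libraries. Replicates of a group differed by more than sampling noise. No UMIs are stated, so PCR copies count as reads.

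Members and lists were chosen with earlier results of these data known. Named are the members, the cluster products that passed the filter or had at least 10 counts, miRNAs with the same seed, the 5 most alike, and markers.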

Additional observations from a re-analysis of the deposited data

How the results depend on the processing

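No member passed an adjusted p of 0.05 under any alternative that could be run; over all tested miRNAs, 1 of 79 (1.27%) was called with DESeq2, 1 of 503 (0.199%) without a filter, 1 of 76 (1.32%) without the 10 most abundant miRNAs and 0 in the other alternatives. With DESeq2, DESeq2 size factors, library totals alone, no filter, limma voom with quality weights (chosen after seeing the data) and each library left out, every tested member was fitted lower in shMCU, with adjusted p from 0.17 to 0.99; a filter of 100 counts in 3 libraries removed all members. The log2 fold change of the summed members, -0.63, was -1.22 without the 10 most abundant miRNAs and between -1.21 and -0.34 when single libraries were dropped. Without those 10, or without shMCU replicate 1, all 3 tested members had an unadjusted p under 0.05 (8 of 76 and 12 of 91 tested miRNAs did), with adjusted p of 0.19 to 0.21 and of 0.17 by edgeR. As a share of counts, the difference (shMCU minus shNC) of -0.498 percentage points was -1.33 with the 10 most abundant left out of the denominator; the causes were not tested. The MIR17HG pair's difference of -0.43 points ran from -3.11 to 1.80 with a library left out. Signs changed for miR-25-3p, at -0.10 with library totals, -0.073 without a filter, -0.039 with the stricter filter and -0.076 to 0.29 with a library left out, and for miR-92a-3p, at -0.40 to 0.18. The labels state no pairing by replicate number. Same-numbered deviations correlated at 0.16, -0.35 and 0.08 and differently numbered ones at -0.33 to 0.29, so these values cannot decide whether libraries were paired. A replicate block gave 0 calls and -0.74 for the sum. Depth limits miR-106b-5p most, at 2 to 7 counts per library.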
